A study of Mus musculus with 8 samples.

Results

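The immunity-related GTPases described here are 7 mouse genes, Irgm1, Irgm2, Igtp, Ifi47, Tgtp1, Tgtp2 and Iigp1. They were taken by symbol from a table of 42687 genes, in which each symbol matched 1 Ensembl identifier, and all 7 passed the filter on low counts that left 15197 genes for testing. RNA was sequenced from a cultured clone of poorly immunogenic pancreatic cancer cells of the mouse. The clone came from KPCY mice, whose alleles are KrasLSL-G12D/+ and Trp53LSL-R172H/+ with Pdx1-Cre, a Cre expressed in the pancreas lineage, and Rosa26YFP/YFP, a fluorescent reporter; the sample labels give the genotype only as WT. There were 4 groups of 2 libraries. One received ATEVs pretreated with Baseline-ZERO DNase at 15 µg/mL (DNAse+ATEV), another ATEVs at 15 µg/mL, a further one NTEVs at 30 µg/mL, and the last PBS. The vesicles are extracellular vesicles (EVs) shed by mouse T cells. NTEVs came from non-activated T cells; the short form ATEV is not spelled out, and is read here as the activated counterpart. Both doses of untreated vesicles are read here as matching 5 µg/mL of EV-DNA. Cells of every group were harvested and reseeded the day after an exposure, and this was done 8 times. All groups share 1 clone. Nothing says that the 2 libraries of a group were cultured apart, so a p-value here covers the spread between libraries, and that spread may be technical.

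Immunity-related GTPases are large GTPases that mouse cells make when they receive interferon, above all interferon gamma, and they defend cells from microbes that live inside vacuoles. The effector members, Ifi47 (also called Irgd), Tgtp1 and Tgtp2 (Irgb6) and Iigp1 (Irga6), gather on such vacuoles, those of Toxoplasma gondii for example, and break their membranes. The regulators Irgm1, Irgm2 and Igtp (Irgm3) sit on the cell's own membranes, where they hold the effectors inactive; Irgm1 is also known for roles in autophagy and at the Golgi. Promoters of interferon-induced genes are known to carry the gamma-activated site (GAS) and the interferon-stimulated response element (ISRE), the second of which binds IRF factors.

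Promoter sequences are shown because the 7 genes moved together. RefSeq windows of the mouse build GRCm38.p6, from 250 bases before to 50 bases after a transcript start, were matched for 6 of the genes, all but Iigp1, and lie on chromosome 11. Both strands were searched for the ISRE letters, here GAAA followed by 2 bases of any kind and a second GAAA, and for the GAS letters, here TTC and GAA parted by 3 bases of any kind. ISRE letters stood in 5 of the 6 windows and in 3.44% of the 32851 windows of the whole table. GAS letters stood in 4 of the 6 and in 8.3% of all. In Igtp, Irgm2, Tgtp1 and Tgtp2 the GAS letters ended 2 bases before the ISRE letters began. A GAS followed within 10 bases by an ISRE on the strand of the gene occurred in 9 of all windows (0.0274%), these 4 included, a spacing looked at after the sequences were seen. Gm26512 is among the 9 more than once. The sequences of Igtp and Irgm2 below are nearly identical, and those of Tgtp1 and Tgtp2 are closely alike. These windows are therefore not independent occurrences, here or in the ISRE and GAS counts. The 60 bases around these letters are given below from 5′ to 3′ on the strand of each gene, with every match to either motif in capitals.
Igtp, chr11:58199492-58199551, plus strand: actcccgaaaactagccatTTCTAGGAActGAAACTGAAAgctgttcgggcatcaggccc
Irgm2, chr11:58214883-58214942, plus strand: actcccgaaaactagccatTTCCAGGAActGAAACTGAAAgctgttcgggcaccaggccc
Tgtp1, chr11:48992294-48992353, minus strand: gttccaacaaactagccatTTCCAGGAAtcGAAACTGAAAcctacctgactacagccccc
Tgtp2, chr11:49064253-49064312, minus strand: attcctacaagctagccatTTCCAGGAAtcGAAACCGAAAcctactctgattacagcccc
Irgm1, chr11:48871421-48871480, minus strand: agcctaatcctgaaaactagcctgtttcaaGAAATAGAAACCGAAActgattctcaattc

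The regulator Irgm1 held 2 overlapping ISRE matches, which began 30 and 24 bases before its start, and no GAS letters. In the other 4 windows the ISRE letters began between 34 bases (Igtp) and 77 bases (Tgtp1) before the start. The Ifi47 window held neither motif, which says only that these letters are not in this window. Of the other windows with the paired motifs, those of Gm12185, another gene of the family, and of Bst2, which encodes the antiviral protein tetherin, belonged to tested genes. A match of letters describes a sequence and does not show that a factor binds there.

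**Figure D1:**
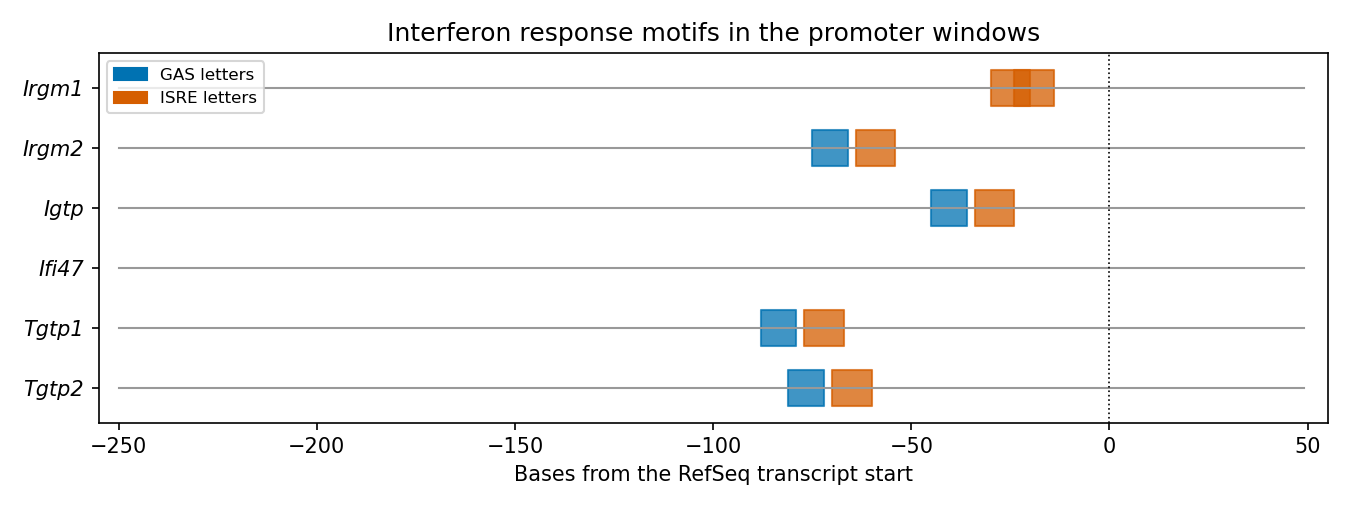
Positions of the GAS letters (blue) and ISRE letters (orange) in the promoter windows of 6 of the genes, in bases from the RefSeq transcript start (dotted line). The paired blue and orange blocks of Irgm2, Igtp, Tgtp1 and Tgtp2 lie 2 bases apart, Irgm1 has 2 overlapping ISRE matches and Ifi47 has none.

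Total gene counts ran from 34385326 to 52451398 per library. Of 10 markers of pancreatic ductal epithelium all 10 had counts in every library, and their summed level was 8903 to 11856 CPM, the usual measure of reads of a gene per fixed number of reads in its library; Cldn4 (at most 2.04 CPM) and Sox9 (at most 9.11 CPM) were low. The 14 T cell markers, for the cells that shed the vesicles, summed to 8.84 to 11.5 CPM with DNAse+ATEV, 8.51 to 11.01 with ATEV, 6.30 to 8.46 with NTEV and 10.7 to 11.9 with PBS. Cd2, Cd8a and Prf1 were at 0 counts in every library, and of that list only Trac and Lck passed the filter. Myeloid and B cell markers, 10 in all, summed to 201 to 274 CPM with DNAse+ATEV, 155 to 168 with ATEV, 108 to 125 with NTEV and 69.4 to 103 with PBS. Nearly all of that sum was Cd14, which reached 270.0 CPM, and 1 of the 3 tested genes of that list was called higher with DNAse+ATEV than with PBS. That gene was Cd14 itself (log2 fold change 1.48, edgeR adjusted p = 0.0284), and Adgre1 and Ms4a1 were at 0 in every library. The 9 fibroblast and endothelial markers summed to at most 11.5 CPM in any library, with Dcn at 0 throughout, and 1 of the 4 tested, Pdpn, was called higher with ATEVs than with PBS (2.41, edgeR adjusted p = 0.0496, at most 1.51 CPM). The part of these markers in the results was not tested. In bulk RNA, fewer cells that express a gene and less RNA of it per cell cannot be told apart.

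All 3 regulators rose with ATEVs against PBS, the comparison that asks what the activated T cell vesicles did to the cells. CPM values carry edgeR's TMM scaling between libraries. Irgm1 was at 475 and 256 CPM in the ATEV libraries, against 73.5 and 58.5 CPM in the PBS libraries. Irgm2 was at 309 and 151 CPM with ATEVs and at 9.36 and 4.41 CPM with PBS. Igtp was at 530.2 and 176 CPM with ATEVs and at 6.99 and 3.71 CPM with PBS. For each regulator the lower ATEV library lay far above the higher PBS library, and the PBS libraries already held from 122 (Igtp) to 3786 (Irgm1) reads of each. The log2 fold change was 2.47 ± 0.32 for Irgm1 (SE from edgeR's quasi-likelihood test, adjusted p = 0.00743), 5.05 ± 0.53 for Irgm2 (adjusted p = 0.00332) and 6.03 ± 0.65 for Igtp (adjusted p = 0.00370). Irgm1 thus rose 5.53-fold, Irgm2 33.1-fold and Igtp 65.4-fold. The sizes for 2 of them moved by over 1.5 times with 1 library left out: the log2 fold change of Igtp was 5.07 without ATEV library 1 and 6.62 without ATEV library 2, and that of Irgm2 was 5.70 without PBS library 1.

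The 4 effectors rose as well, and 2 of them did so over PBS levels of a few reads. Ifi47 was at 129.7 and 63.6 CPM in the ATEV libraries and at 6.82 and 3.89 CPM in the PBS libraries. Tgtp1 was at 224 and 98.3 CPM with ATEVs and at 0.602 and 0.486 CPM with PBS, which is 31 and 16 reads. Ifi47, like Irgm2 and Igtp, was thus transcribed in PBS cells, while Tgtp1 had few reads there. Tgtp2 was at 181 and 79.3 CPM with ATEVs, against 2 and 0 reads with PBS. Iigp1 was at 1111 and 535 CPM with ATEVs, against 3 and 0 reads with PBS. A count of 0 in the second PBS library allows up to 0.0912 CPM at a floor of 3 counts. The log2 fold change was 4.16 ± 0.43 for Ifi47 (edgeR adjusted p = 0.00312), 8.18 ± 0.78 for Tgtp1 (0.00247), 12.27 ± 0.73 for Tgtp2 (0.000608) and 14.40 ± 0.81 for Iigp1 (0.000600). With so few PBS reads the fitted values of Tgtp2 and Iigp1 depend on the prior count of the model. They were 15.41 and 18.07 without PBS library 1, which leaves 0 PBS reads of either gene, and 11.61 and 13.72 without PBS library 2. Without ATEV library 1 the value was 11.59 for Tgtp2 and 7.51 for Tgtp1. The ratio of pooled counts was 5485 for Tgtp2 (95% exact counting interval 1518 to 45296) and 23117 for Iigp1 (7910 to 112098), intervals that cover counting error only.

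In all, 7 of the 7 genes were called higher with ATEVs than with PBS by edgeR (adjusted p under 0.05 over all genes tested), where 3.52% of all tested genes were. Their log2 fold changes ran from 2.47 to 14.40 with a median of 6.03, and the median over all tested genes was -0.02. The ATEV libraries both lay above both PBS libraries for 7 of 7, against 25.2% of tested genes. Iigp1 and Tgtp2 passed the filter on low counts only through groups other than PBS. Shares over all tested genes are not a like comparison for them. The genes with the least transcript in PBS cells, Iigp1 and Tgtp2, had the highest fold changes, and Irgm1, with the most, had the lowest. The PBS level is the denominator of the fold change, so this order follows in part from the arithmetic. DESeq2 called 7 of 7 as well, against 6.76% of all tested genes. Leaving out a PBS library lowered edgeR's calls over all tested genes as well as among the 7. Leaving out PBS library 2 left 4 calls and leaving out PBS library 1 left 6; Irgm1 was lost in both (highest edgeR adjusted p = 0.100), and Igtp and Tgtp1 without PBS library 2 (adjusted p = 0.0584 and 0.0518).

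**Figure D2:**
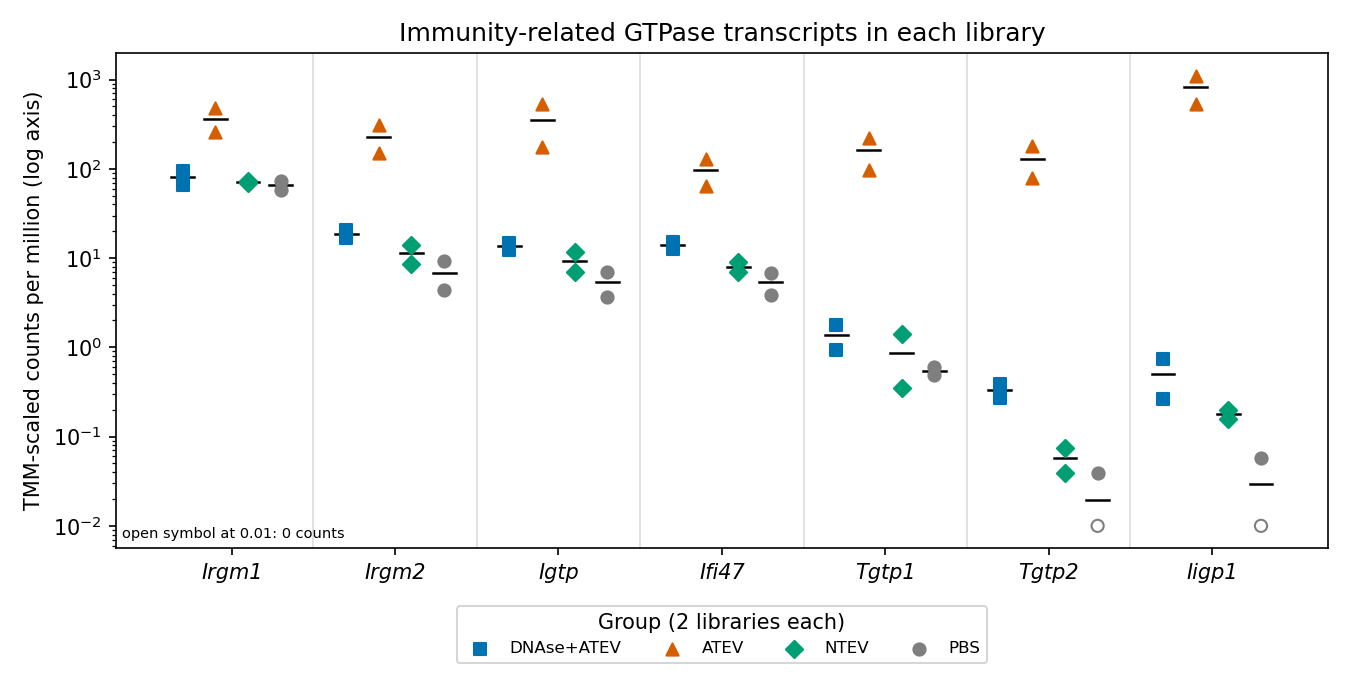
TMM-scaled CPM of the 7 genes (log axis) in every library, grouped as DNAse+ATEV, ATEV, NTEV and PBS with 2 libraries each; short lines mark group means and open symbols mark libraries with 0 counts, drawn at 0.01. The ATEV points stand above all others for every gene, from 63.6 CPM (Ifi47) to 1111 CPM (Iigp1), while the remaining groups range from under 1 CPM for Iigp1 and Tgtp2 to between 58.5 and 93.5 CPM for Irgm1.

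ATEVs at 15 µg/mL were set against NTEVs at 30 µg/mL, which asks whether activation of the T cells matters. Vesicle dose differed along with activation, so the effects of the 2 cannot be told apart. The same 7 genes were called higher with ATEVs, where 1.05% of all tested genes were. The regulator Irgm1 was at 475 and 256 CPM with ATEVs, against 68.7 and 74.0 CPM with NTEVs, a log2 fold change of 2.36 ± 0.32 (edgeR adjusted p = 0.0178). Igtp was at 530.2 and 176 CPM with ATEVs and at 6.998 and 11.8 CPM with NTEVs, a log2 fold change of 5.23 ± 0.62 (adjusted p = 0.0103). The groups did not overlap for either gene, nor for the other 5. Both ATEV libraries lay above both NTEV libraries in 13.7% of tested genes. Iigp1 and Tgtp2 passed the filter on low counts only through groups other than NTEV and PBS. Shares over all tested genes are not a like comparison for them. In the NTEV libraries Irgm2 was at 8.58 and 14.1 CPM and the effector Ifi47 at 6.98 and 8.98 CPM, values close to those of Igtp. Among the effectors the change was 3.60 ± 0.42 for Ifi47 (edgeR adjusted p = 0.00924), 7.57 ± 0.74 for Tgtp1 (0.00466), 11.14 ± 0.67 for Tgtp2 (0.000962) and 12.17 ± 0.70 for Iigp1 (0.000920), and 4.35 ± 0.51 for the regulator Irgm2 (0.00948), all on the log2 scale. The median was 5.23, against 0.01 over all tested genes. Leaving out ATEV library 1 lowered the log2 fold change to 4.25 for Igtp, 3.76 for Irgm2, 6.86 for Tgtp1, 10.44 for Tgtp2 and 11.57 for Iigp1. It was 5.83 for Igtp without ATEV library 2, and for Tgtp1 6.83 without NTEV library 1 and 8.83 without NTEV library 2. Leaving out an NTEV library lowered edgeR's calls over all tested genes as well as among the 7. Without NTEV library 1 the number called was 3 and without NTEV library 2 it was 4; Irgm1, Igtp and Ifi47 were lost in both (edgeR adjusted p of 0.0518 to 0.166) and Irgm2 without the first (0.0921).

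NTEVs against PBS, the control for exposure to T cell vesicles as such, gave 0 calls among the 7 by edgeR, 0 by DESeq2 and 0 at an unadjusted p under 0.05. Of all tested genes, edgeR called 0.704% higher and 0.408% lower, DESeq2 3.82% and 2.65%, and an unadjusted p under 0.05 was met by 10.3% higher and 8.85% lower. Iigp1 had 8 and 8 reads with NTEVs, against 3 and 0 with PBS. Tgtp2 had 2 and 3 reads with NTEVs, against 2 and 0 with PBS. Both effectors thus had at most 8 reads in each of the 4 libraries. Tgtp1 was at 0.352 and 1.39 CPM with NTEVs, on both sides of the PBS values. The log2 fold change was positive for 7 of 7, from 0.11 ± 0.30 for Irgm1 to 2.23 ± 1.29 for Iigp1 (ratio of pooled counts 4.93, 95% exact counting interval 1.41 to 26.4), with a median of 0.70 against 0.00 over all tested genes, and the adjusted p ran from 0.358 to 0.840. Both NTEV libraries lay above both PBS libraries for 4 of the 7, against 28.6% of tested genes. Those were Iigp1, Igtp, Tgtp2 and Ifi47. For Igtp the nearest libraries were at 6.998 CPM with NTEVs and 6.993 CPM with PBS. With NTEV and PBS alone, Iigp1 and Tgtp2 did not pass the filter on low counts. Both were tested here only through their counts in other groups, so the 28.6% is not a like comparison for them.

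DNase pretreatment of the vesicles was followed by lower levels of all 7 genes than untreated ATEVs gave. That comparison asks what the DNA of the vesicles contributes. No group received DNase alone or DNase-treated NTEVs, so loss of that DNA cannot be told apart from other effects of the DNase step. Iigp1 fell to 0.266 and 0.747 CPM with DNAse+ATEV (11 and 30 reads), against 1111 and 535 CPM with ATEVs. Tgtp2 fell to 0.387 and 0.274 CPM with DNAse+ATEV, against 181 and 79.3 CPM with ATEVs. Tgtp1 fell to 0.944 and 1.79 CPM with DNAse+ATEV, against 224 and 98.3 CPM with ATEVs. For these 3 effectors the mean with DNAse+ATEV was 0.0615%, 0.254% and 0.850% of the ATEV mean, in the order given. Each DNAse+ATEV library lay below each ATEV library. Ifi47 fell to 12.7 and 15.0 CPM with DNAse+ATEV, against 129.7 and 63.6 CPM with ATEVs. Among the regulators, Igtp fell to 12.2 and 14.8 CPM with DNAse+ATEV, against 530.2 and 176 CPM with ATEVs. Irgm2 fell to 16.9 and 20.6 CPM with DNAse+ATEV, against 309 and 151 CPM with ATEVs. These 3 held 14.3%, 3.82% and 8.15% of the ATEV mean, in the same order as named. Irgm1 fell to 66.7 and 93.5 CPM with DNAse+ATEV, against 475 and 256 CPM with ATEVs, or 21.9% of the ATEV mean. PBS cells, for comparison, held 18.1% of the ATEV mean for Irgm1, 5.54% for Ifi47, 2.99% for Irgm2 and 1.51% for Igtp.

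The fall was called by edgeR for 7 of 7, where 0.579% of all tested genes were called lower. Log2 fold changes were -10.66 ± 0.65 for Iigp1 (adjusted p = 0.00166), -8.61 ± 0.56 for Tgtp2 (0.00180), -6.88 ± 0.72 for Tgtp1 (0.00923), -4.71 ± 0.61 for Igtp (0.0244), -3.62 ± 0.49 for Irgm2 (0.0279), -2.80 ± 0.40 for Ifi47 (0.0333) and -2.19 ± 0.31 for Irgm1 (0.0340). The median was -4.71, against 0.01 over all tested genes. Both DNAse+ATEV libraries lay below both ATEV libraries for 7 of 7, against 16.8% of tested genes. With 1 library left out, fewer calls were made over all tested genes, and in most of these fits fewer among the 7. Without DNAse+ATEV library 1, and likewise without DNAse+ATEV library 2, 2 calls were left, Iigp1 and Tgtp2 in each case, and the other 5 had edgeR adjusted p of 0.0841 to 0.242. Without ATEV library 1 there were 4, with Irgm1, Irgm2 and Ifi47 lost (edgeR adjusted p = 0.0587, 0.0627 and 0.0765), and without ATEV library 2 there were 7. Without ATEV library 1 the log2 fold changes were also smaller in size, -3.73 for Igtp, -3.03 for Irgm2, -6.18 for Tgtp1, -7.91 for Tgtp2 and -10.06 for Iigp1, while Igtp was at -5.30 without ATEV library 2 and Iigp1 at -11.60 without DNAse+ATEV library 2.

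**Figure D3:**
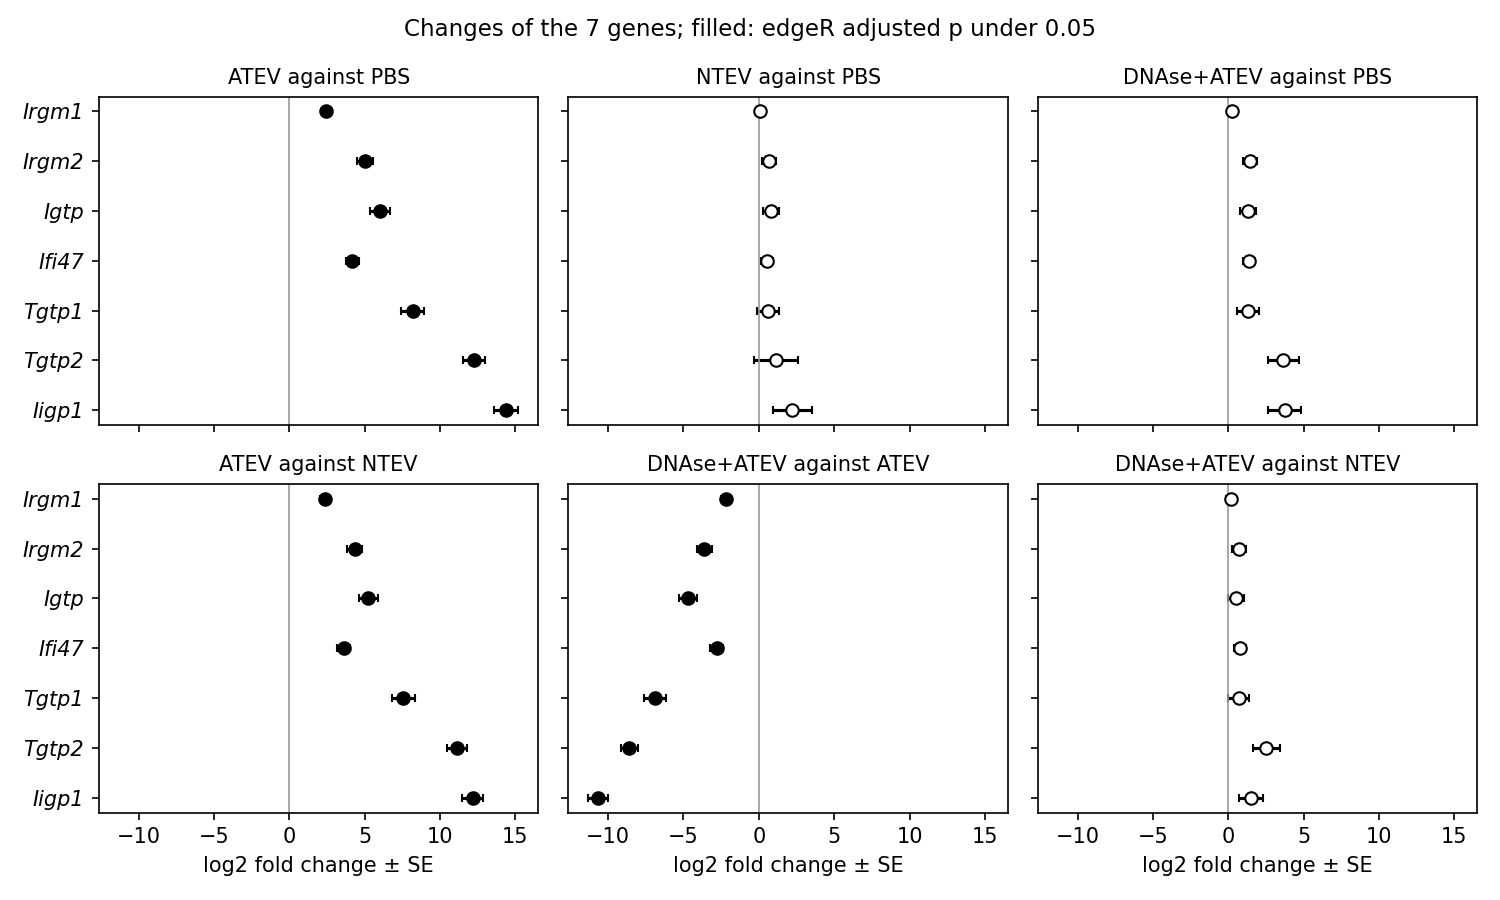
Log2 fold change of each of the 7 genes (points) with its SE (bars) in the 6 comparisons, filled where edgeR's adjusted p was under 0.05. All 7 points are filled on the right in ATEV against PBS (2.47 to 14.40) and ATEV against NTEV, all 7 are filled on the left in DNAse+ATEV against ATEV (-2.19 to -10.66), and none is filled in the other 3 comparisons.

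DNAse+ATEV against PBS left 0 of the 7 called by edgeR; DESeq2 called 4 higher, and 5 were higher at an unadjusted edgeR p under 0.05. The share of all tested genes was 2.16% for edgeR calls higher, 0.855% for edgeR calls lower, 13.7% for an unadjusted p under 0.05 and higher, and 7.13% for DESeq2 calls higher. Ifi47 was at 12.7 and 15.0 CPM with DNAse+ATEV and at 6.82 and 3.89 CPM with PBS (log2 fold change 1.36 ± 0.39, edgeR adjusted p = 0.103). Irgm2 was at 16.9 and 20.6 CPM with DNAse+ATEV and at 9.36 and 4.41 CPM with PBS (1.43 ± 0.46, adjusted p = 0.126). Both libraries of DNAse+ATEV lay above both of PBS for 6 of the 7, against 29.7% of tested genes. Irgm1 was the exception, with 66.7 and 93.5 CPM with DNAse+ATEV around the higher PBS value of 73.5 CPM (0.28 ± 0.30, adjusted p = 0.581). Iigp1 had 11 and 30 reads with DNAse+ATEV against 3 and 0 with PBS, a ratio of pooled counts of 14.2 with a 95% exact counting interval of 4.51 to 71.4. Tgtp2 had 16 and 11 reads with DNAse+ATEV against 2 and 0 with PBS, a ratio of 14.0 (3.51 to 121). Iigp1 and Tgtp2 passed the filter on low counts only through groups other than PBS. The 29.7% and the other shares over all tested genes are not a like comparison for them. The 4 genes that DESeq2 called were Iigp1 (DESeq2 adjusted p = 0.00229), Ifi47 (0.00915), Tgtp2 (0.0133) and Irgm2 (0.0182). Igtp, at 12.2 and 14.8 CPM with DNAse+ATEV against 6.99 and 3.71 CPM with PBS (1.32 ± 0.55, edgeR adjusted p = 0.195), and Tgtp1 (1.30 ± 0.73, 0.303) were called by neither. How many of the genes were called higher than in PBS cells thus depended on the test.

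DNAse+ATEV against NTEVs gave 0 calls among the 7 by edgeR, 0 by DESeq2 and 1 higher at an unadjusted p under 0.05. That gene was Tgtp2, with 16 and 11 reads with DNAse+ATEV against 2 and 3 with NTEVs (log2 fold change 2.53 ± 0.88, edgeR adjusted p = 0.448). Of all tested genes edgeR called 0.0461% higher and 0.00658% lower, DESeq2 called 0.915% and 0.388%, and 5.86% were higher at an unadjusted p under 0.05. The 7 fold changes were all positive, from 0.17 to 2.53 with a median of 0.73, and for 5 of the 7 both DNAse+ATEV libraries lay above both NTEV libraries, against 20.3% of tested genes. Irgm1 and Tgtp1 overlapped. Iigp1 and Tgtp2, among the 5, passed the filter on low counts only through groups other than NTEV and PBS. The 20.3% is not a like comparison for them. Each group enters 3 of the 6 comparisons, so these share libraries and are not independent of each other.

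Per length, the make-up of the family was different in ATEV cells, a description with no test. Levels were divided by the merged exon length of each gene, from 2.02 kb for Igtp to 5.82 kb for Iigp1. In ATEV cells Igtp was at 175 ± 124 CPM per kb (SD, n = 2), Iigp1 at 141 ± 70.0, Irgm1 at 62.9 ± 26.7, Irgm2 at 62.3 ± 30.2, Tgtp1 at 50.2 ± 27.7, Tgtp2 at 44.3 ± 24.5 and Ifi47 at 39.1 ± 18.9. Neighbours in that order differed by less than the larger of their SDs, except Iigp1 and Irgm1. In PBS cells the order began with Irgm1 at 11.4 ± 1.83 CPM per kb, followed by Igtp at 2.65 ± 1.15, Ifi47 at 2.17 ± 0.84, Irgm2 at 1.87 ± 0.95 and Tgtp1 at 0.170 ± 0.0256, while Tgtp2 and Iigp1 rested on 2 and 3 reads in all. There Irgm1 stood apart from Igtp, and Irgm2 from Tgtp1, by more than either SD, while Igtp, Ifi47 and Irgm2 did not differ beyond theirs. Within both PBS libraries, though, Igtp came before Ifi47 and Ifi47 before Irgm2. Irgm1 made up 41.4% and 44.9% of the summed CPM per kb in the DNAse+ATEV libraries, 10.2% and 12.7% in the ATEV libraries, 57.4% and 48.0% in the NTEV libraries and 58.5% and 67.9% in the PBS libraries. Iigp1 was 23.8% and 26.4% of the sum in the ATEV libraries and at most 0.358% in any other library. With the longest transcript as length, Iigp1 came before Igtp in ATEV cells, at 264 CPM per kb against 175, so the order of those 2 genes differed by gene model. It also differed between the ATEV libraries under the merged exon length, with Igtp at 32.7% and Iigp1 at 23.8% of the sum in library 1, and Igtp at 25.1% and Iigp1 at 26.4% in library 2.

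**Figure D4:**
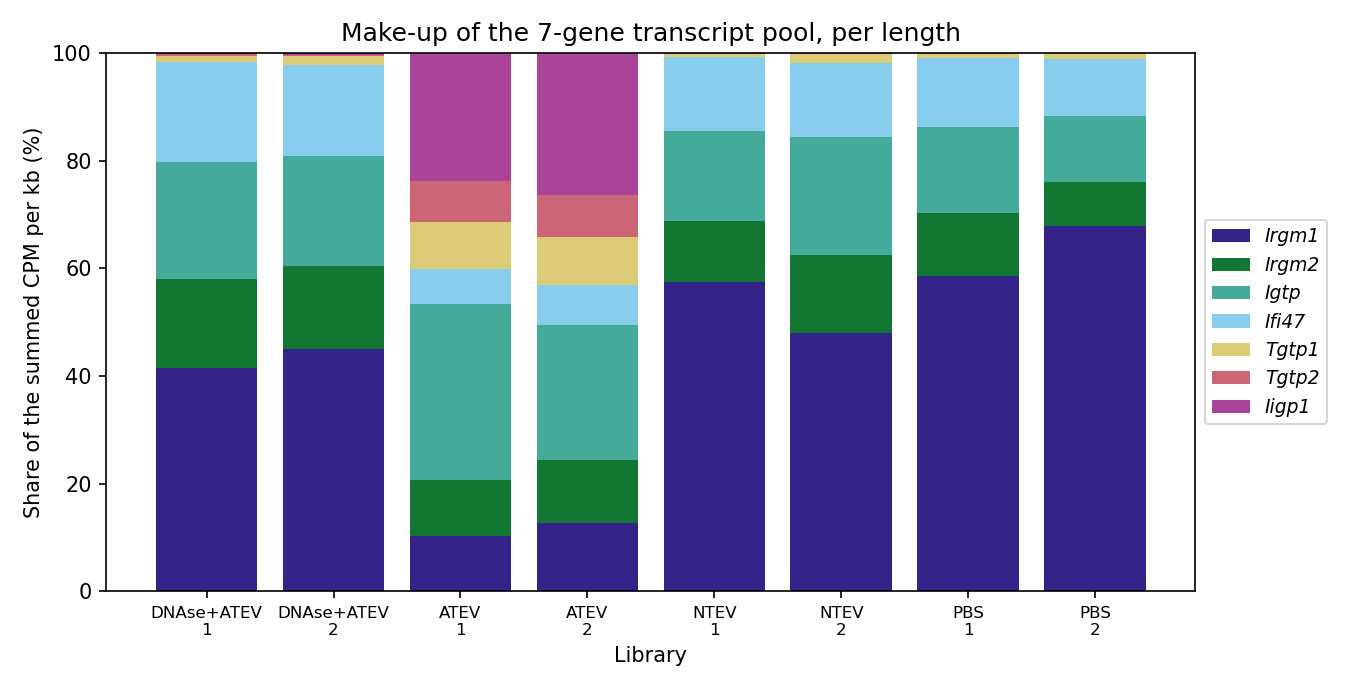
Share of each gene in the summed CPM per kb of the 7 genes (stacked bars, %), by library. Irgm1 (bottom) takes between 41.4% and 67.9% in the DNAse+ATEV, NTEV and PBS libraries and 10.2% and 12.7% in the ATEV libraries, where Iigp1 (top) takes 23.8% and 26.4%.

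The 2 ATEV libraries differed from each other in all 7 genes in the same direction. Library 1 was higher 1.86-fold for Irgm1, 2.04-fold for Irgm2 and Ifi47, 2.08-fold for Iigp1, 2.28-fold for Tgtp1 and Tgtp2 and 3.01-fold for Igtp, at near-equal total counts of 44104540 and 43330950. Over all tested genes the median log2 ratio of library 1 to library 2 was 0.01, and 4.92% of tested genes had a ratio at or above the lowest of the 7. Irf1, a transcription factor that binds ISRE sites, was at 393 and 192 CPM in the same libraries. Library 1 was the higher one for 1 of the 7 genes with DNAse+ATEV (Tgtp2), for 0 with NTEV and for 7 with PBS, where 20.9% of tested genes had a ratio at or above the lowest of the 7. Summed over the 7 genes, the DNAse+ATEV libraries held 110.1 and 147 CPM, the ATEV libraries 2960 and 1359, the NTEV libraries 91.8 and 110.6, and the PBS libraries 97.4 and 71.0.

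Read assignment limits some of these values. Of the distinct 50-base windows of Tgtp2 transcripts (GENCODE M21), 85.8% occur also in Tgtp1 transcripts, and 79.4% of those of Tgtp1 in Tgtp2, so the split of reads between the pair is uncertain. With their counts summed before the fit, 6 of 6 genes were called in each of the 3 comparisons that called 7 of 7. Igtp and Irgm2 share 11.8% and 6.79% of such windows and 162 exon bases. Tgtp1 shares 223 exon bases with Gm12185 on its strand, and Ifi47 shares 111 with Olfr56 on its strand and 106 with the antisense pseudogene Gm12188.

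Across the 8 libraries the genes most like the mean standardised profile of the 7 were Irf1 (Pearson's r 0.994), Tap1, a chain of the peptide transporter for MHC class I (0.994), Gbp4 (0.993), H2-M3 (0.992), Gbp7 (0.990), Ube2l6 (0.990), Gbp2 (0.990) and Il13ra1 (0.9895), out of 10538 candidates. These are a description over 8 libraries in 4 groups, which share the ATEV libraries as their high points. Each of the 7 correlated with the mean of the other 6 at 0.982 (Irgm1) to 0.997 (Igtp).

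Further members of the family gave a mixed picture. Of 21 listed symbols 11 were in the table and 9 tested. Of these 9, 6 rose with ATEVs against PBS, where 3.52% of all tested genes were called higher. Some of them, Gm4841 and F830016B08Rik included, passed the filter on low counts only through groups other than PBS. The 3.52% is not a like comparison for those. The median log2 fold change was 6.25, against -0.02 over all tested genes. Gm4841 was at 239 and 140 CPM with ATEVs, against 2 and 1 reads with PBS (edgeR adjusted p = 0.000308). Gm12250, annotated as a pseudogene in GENCODE M21, was at 50.9 and 13.9 CPM with ATEVs and at 0.272 and 0.608 CPM with PBS (log2 fold change 6.25, adjusted p = 0.00921). F830016B08Rik was at 29.4 and 30.1 CPM with ATEVs, against 0 and 1 reads with PBS (adjusted p = 0.00182). Gm4951, Gm5431 and Gm12185 rose by log2 9.08, 4.19 and 7.25, the first over 10 and 0 reads with PBS. The 3 that did not pass were Irgq (0.32, edgeR adjusted p = 0.544), 9930111J21Rik1 (0.37, 0.643) and 9930111J21Rik2 (-0.02, 0.979). With DNAse+ATEV against ATEV 5 of the 9 fell, all of the 6 but Gm5431 (-2.57, edgeR adjusted p = 0.113). Of all tested genes 0.579% were called lower there. With NTEVs against PBS edgeR called 0 of the 9, none reaching an unadjusted p under 0.05. There edgeR called 0.704% of all tested genes higher and 0.408% lower, and 10.3% and 8.85% met the unadjusted threshold. A count of 0 calls among 9 is near that background.

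Genes of the interferon gamma pathway moved in part. The gene for interferon gamma itself, Ifng, had 0 counts in all 8 libraries, which allows at most 0.0583 to 0.0912 CPM per library. Its receptor chains and kinases did not pass with ATEVs against PBS: the log2 fold change was 0.30 for Ifngr1, 0.37 for Ifngr2, 0.11 for Jak1 and 0.28 for Jak2 (edgeR adjusted p of 0.261 to 0.634). Irf1 rose to 393 and 192 CPM with ATEVs, against 40.9 and 30.3 CPM with PBS (log2 fold change 3.04, edgeR adjusted p = 0.00558). Of 12 tested genes of the list 5 rose with ATEVs against PBS (median 1.05), Irf1, Irf2, Socs1 and Ciita among them. With DNAse+ATEV against ATEV 3 fell (median -0.59), Irf1 and Ciita among them. Of all tested genes 3.52% were called higher in the first comparison and 0.579% lower in the second. With DNAse+ATEV against PBS edgeR called 0 of the 12, where 2.16% of all tested genes were called higher. At an unadjusted p under 0.05, 3 were higher and 1 was lower. By that rule 13.7% of all tested genes were higher, and the share that was lower is not given here.

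Of 9 tested genes of the type I interferon list 6 rose with ATEVs against PBS (median 1.70), where 3.52% of all tested genes did. With DNAse+ATEV against PBS 4 rose by edgeR (median 1.31, where 2.16% of all tested genes were called higher), namely Stat2, Irf7, Usp18 and Isg15, with adjusted p of 0.0498, 0.0497, 0.0246 and 0.0210, in that order. With DNAse+ATEV against ATEV edgeR called 0 of the 9. Of all tested genes edgeR called 0.579% lower there, so a count of 0 among 9 is near the background. At an unadjusted p under 0.05, 1 of the 9 was lower, and the share of all genes by that rule is not given here. Whether any of these lists differs from the 7 immunity-related GTPases was not tested. The guanylate-binding proteins, partners of the effectors on vacuoles, had 10 of 11 higher with ATEVs than with PBS (median 8.80). With DNAse+ATEV, 2 of 11 were higher than with PBS and 7 of 11 lower than with ATEVs. The shares of all tested genes called in the same directions were 3.52%, 2.16% and 0.579%, in that order. The ATG8 conjugation genes, whose products guide effectors to vacuoles, had 0 of 11 called by edgeR with ATEVs against PBS (median 0.03). Of all tested genes 3.52% were called higher there, so a count of 0 among 11 is near the background. At an unadjusted p under 0.05, 1 of the 11 was lower, a rule for which no share over all genes is given here. Of 6 ubiquitin ligases and adaptors that follow the GTPases to vacuoles, 1 rose with ATEVs against PBS, where 3.52% of all tested genes did. That was Trim21, a cytosolic antibody receptor and ubiquitin ligase (1.70, edgeR adjusted p = 0.0140).

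**Figure D5:**
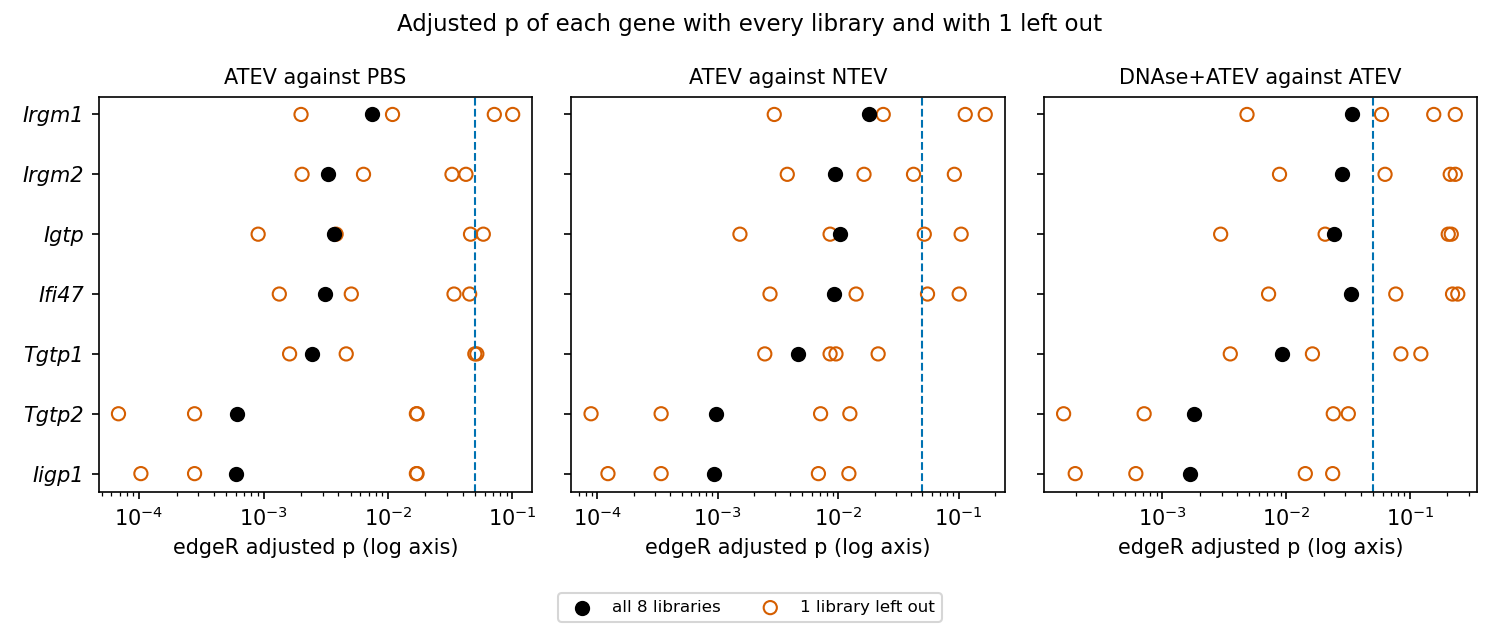
edgeR's adjusted p (log axis) of each of the 7 genes in the 3 comparisons that involve ATEVs and passed, with all 8 libraries (filled) and with 1 library of the compared groups left out (open); the dashed line marks 0.05. Iigp1 and Tgtp2 stay left of the line throughout, and Irgm1 crosses it in each panel, to 0.231 at most in DNAse+ATEV against ATEV.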

How the data were processed

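The values are whole-number gene counts as the authors deposited them, 1 column per library, from stranded mRNA libraries, per the labels' protocols. Build mm9 and the tools Cufflinks 2.1.1, TopHat, TopHat2 2.0.11 and bcl2fastq 2.19 are named in the submitters' processing notes, without roles. Which program counted reads, on which annotation and with which strand setting, is not given in the sources used here, so genes that overlap another, on either strand, have uncertain values. GENCODE M21, on a later build, gave symbols (42329 identifiers matched), lengths and transcripts, and RefSeq (GRCm38.p6) the promoter windows; no coordinates were converted.

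Counts were analysed with edgeR 4.0.16 in R 4.3.3: filterByExpr by group, TMM scaling, and 1 quasi-likelihood fit with a mean per group over all 8 libraries (4 residual degrees of freedom, common biological coefficient of variation 0.226). Two-sided p-values were adjusted over 15197 genes (Benjamini-Hochberg), with a threshold of 0.05. SE is the log2 fold change divided by the root of the F statistic. An exact permutation test of a single value in 2 against 2 libraries cannot go below 0.333. Replicates differed by more than sampling noise (chi-square per gene of 39.0 to 145). Alternatives were DESeq2 1.42.0, its size factors, no filter, fits of 2 groups, a replicate block (over all groups or the EV groups), leaving out each library, and summed Tgtp counts. The steps were tested on simulated counts. Named genes were the 7, the 8 most similar genes with a mean log2 CPM (prior count 2) of at least 1, other members of the family, and Irf1, Ifng, its receptors and kinases; other genes named were called members of a list, or were chosen after their values were seen. The 7 genes and all lists were chosen with earlier results of these data known. Values of some genes of these lists are not reported here.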

Additional observations from a re-analysis of the deposited data

How the results depend on the processing

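Leaving out 1 library lowered the calls over all genes in ATEV against PBS, ATEV against NTEV and DNAse+ATEV against ATEV. The direction of all 7 genes in these 3 comparisons was the same in every alternative run. With 1 library left out, the number called was 4 to 7 in ATEV against PBS, 3 to 7 in ATEV against NTEV, 2 to 7 in DNAse+ATEV against ATEV, and 0 in the other 3 comparisons; an arm then left with 1 library is assumed to vary like the other groups. With only the 2 groups compared in the fit, 2 were called in ATEV against NTEV and 3 in DNAse+ATEV against ATEV. Of all genes in those fits 0.354% and 0.322% were called in either direction. In DNAse+ATEV against PBS the number was 4 by DESeq2, 5 with no filter on low counts and 1 with a replicate block (Tgtp2). The shares of all genes called there, in either direction, were 11.6%, 6.03% and 6.92%. In the main fit 2.16% were called higher and 0.855% lower. The cause of these differences was not tested. The block over all groups changed no other number of calls among the 7. The labels do not say what a replicate number marks; the deviations of same-numbered libraries correlated at 0.485 to 0.552 between the EV groups and at -0.24 to -0.14 between these and PBS. With a replicate block in a fit of the EV groups only, chosen after seeing the data, 7 were called in ATEV against NTEV, 7 in DNAse+ATEV against ATEV and 1 in DNAse+ATEV against NTEV (Tgtp2, edgeR adjusted p = 0.0478), while calls over all genes were 1087, 1736 and 793, each over 1.5 times the number without it (181 in ATEV against NTEV and 8 in DNAse+ATEV against NTEV). Directions turned in 4 results, none of them called. Over the fits that left out 1 library, the log2 change in DNAse+ATEV against NTEV ran from -0.113 (without DNAse+ATEV 2) to 0.402 for Irgm1 and from -0.0455 (without NTEV 1) to 1.94 for Tgtp1, and in NTEV against PBS from -0.645 (without NTEV 2) to 1.37 for Tgtp1 and from -0.0464 (without PBS 2) to 0.279 for Irgm1. Over all genes, edgeR called 788 in ATEV against PBS, but 131 without PBS 2, 142 without PBS 1 and 1454 with no filter.

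With the longest transcript as length, CPM per kb moved by more than the SD for Iigp1 to 0.162 with DNAse+ATEV, 264 with ATEV and 0.0569 with NTEV, for Irgm1 to 20.9 with DNAse+ATEV, 95.4 with ATEV, 18.6 with NTEV and 17.2 with PBS, and for Ifi47 to 7.81 with DNAse+ATEV, 4.50 with NTEV and 3.02 with PBS. In NTEV against PBS alone, Iigp1 and Tgtp2 did not pass the filter and have no value. Depth limits Iigp1 and Tgtp2 most, which rest on 0 to 3 reads per library with PBS.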
